A study of Mus musculus with 6 samples.

Results

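Across the 19 autosomes, 282 fixed windows of 1 Mb held at least 1 CTCF peak listed for quiescent muscle stem cells and no peak listed for freshly isolated ones. The 1152 quiescent-state intervals in these windows, of 18669 on the autosomes and 19403 in the whole quiescent list, are described here. Both lists together hold 36923 intervals. The windows run from position 0 of each chromosome, and an interval belongs to the window that holds its midpoint. The members were chosen by the midpoints of both lists, so the absence of freshly isolated peaks, the number of members and their distance to the other list are descriptions and were not tested.

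The series holds 6 ChIP-seq libraries from skeletal muscle stem cells of C57BL/6 mice at postnatal day 38. All groups carry the Pax7-nGFP reporter, in which the promoter of Pax7, the transcription factor that marks these cells, drives a nuclear green fluorescent protein. Quiescent cells (QSC) and freshly isolated cells (FISC) have 2 CTCF libraries and 1 input library each, and 1 deposited peak list each. The labels do not say how quiescence was kept during the preparation of QSC, whether animals were pooled, or how a state's pair of libraries was turned into 1 list. The lists hold 3 columns, a chromosome, a start and an end, with no read count, height or p-value, so the depth is unknown and no value has a replicate error. No marker gene is measured in them, so the labelled cell type could not be checked. All statements below compare 2 lists, and the lack of a call in FISC does not mean that no CTCF was bound there.

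CTCF recognises a long DNA motif through its array of zinc fingers. Together with cohesin, the ring-shaped complex that extrudes chromatin loops, it forms loop anchors and boundaries between chromatin domains. Satellite cells are the resident stem cells of skeletal muscle, lie quiescent beneath the basal lamina of the fibre, and begin to activate when they are taken out of the tissue. Gene-poor parts of mammalian chromosomes are known to hold fewer CTCF sites than gene-rich parts.

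The windows without FISC midpoints made up 11.9% of the 2377 autosomal windows with a QSC midpoint (282 windows, 95% Wilson interval 10.6 to 13.2, which like the other intervals given here covers counting error only). Their members were 6.17% of the autosomal QSC intervals (5.83 to 6.52). With the lists exchanged, the same rule found 13 windows and 19 FISC intervals, which was 0.617% of 2108 windows with a FISC midpoint (0.361 to 1.05). In windows of 500 kb the exchanged rule found 131 windows against 995 for QSC. The autosomal QSC list was the longer one, with 18669 intervals against 17124. When it was cut to its widest 17124 intervals, a setting chosen after seeing the data, the numbers were 278 windows without FISC and 18 without QSC.

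QSC intervals were sparse in these windows. A member window held 4.09 ± 2.05 QSC intervals (mean ± SD over 282 windows, range 1 to 15), against 8.36 ± 5.10 in the 2095 QSC-holding windows with FISC midpoints (range 1 to 42). There were 27 member windows with 1 interval, 36 with 2, 56 with 3, 58 with 4 and 40 with 5. Another 31 windows held 6, 16 held 7, 13 held 8 and 4 held 9. A single member window held more than 9, with 15. The more QSC intervals a window held, the more rarely it lacked FISC. The share without FISC was 32.6% (95% Wilson interval 26.4 to 39.5) of windows with 1 to 2 QSC intervals, 24.5% (20.8 to 28.6) with 3 to 4, 15.01% (12.1 to 18.5) with 5 to 6 and 5.85% (4.20 to 8.10) with 7 to 9. Of the 682 windows with 10 or more QSC intervals, 1 lacked FISC.

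**Figure D1:**
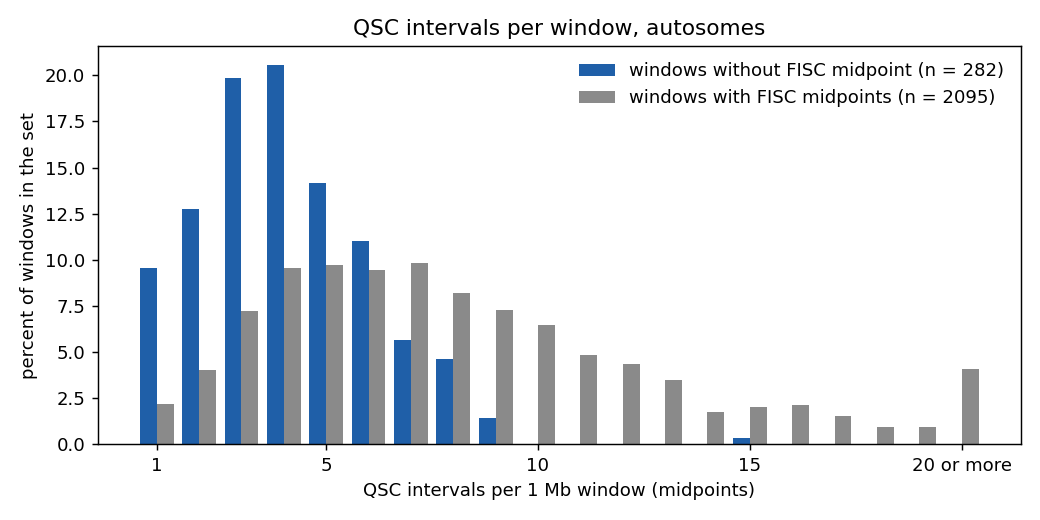
Percent of windows (y axis) by the number of QSC interval midpoints per 1 Mb window (x axis, the last group holds 20 or more), for 282 autosomal windows without a FISC midpoint (blue) and 2095 with FISC midpoints (grey). The blue bars end at 9, except for 1 window with 15.

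The windows just outside the rule looked much the same in QSC. A single FISC midpoint lay in 254 QSC-holding windows, 10.7% of all (9.51 to 11.99). These windows held 1057 QSC intervals, a mean of 4.16 each, close to the 4.09 of the member windows. Their QSC-only intervals, those that overlap no FISC interval by 1 bp or more, numbered 1014 and had a median width of 290 bp, against 287 bp in the members. The lone FISC interval overlapped a QSC interval in 43 of the 254 windows. Its median width was 307 bp, against 373 bp over all autosomal FISC intervals.

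Member intervals were narrow, as other QSC-only intervals were, and had a slightly lower median. Width is the 1 measure of the intervals that the rule did not use. Members ran from 245 to 674 bp with a median of 287 bp (95% order-statistic interval 283 to 291) and a middle 50% from 263 to 334 bp. The 10289 QSC-only intervals of windows with FISC had a median of 292 bp (291 to 294), and the 7228 QSC intervals that overlapped a FISC interval one of 359 bp (357 to 362). By the rule a member could overlap a FISC interval only across a window edge. None did, so the shared class is absent from the members. The members' median thus lay 5 bp below that of QSC-only intervals elsewhere. By FISC midpoints per window, the QSC-only medians were 290 bp with 1 (287 to 294), 291 bp with 2 (287 to 295) and 289 bp with 3 to 5 (287 to 293). They were 295 bp with 6 to 10 and 294 bp with 11 or more. Written as members minus the others, the difference of medians ran from -10 to -1 bp over the 8 alternatives tried. The ends were windows of 2 Mb (-15 to 1) and windows shifted by 500 kb (-5 to 3). Each range given here is the members' 95% order-statistic interval minus the others' median, which was held fixed. It leaves out the error of that median and is not an interval of the difference. The range was -9 to -1 bp by the main rule, with any overlap in place of midpoints and with at least 3 midpoints. Under the other alternatives its upper end was 0 or higher, as with X added (-8 to 0). Whether a range includes 0 is no test of a difference. On X alone the members had the wider median, 298 against 286 bp. With 1 list per state the difference could not be set against a replicate spread. Peak intervals are not replicates, so no test was made.

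At the upper end the shares followed the same order, but members and other QSC-only intervals lay close together. Of the members, 415 (36.02%, 95% Wilson interval 33.3 to 38.8) were at least as wide as the QSC list median of 310 bp. The background was 50.8% of all autosomal QSC intervals and 38.6% of the QSC-only intervals in windows with FISC. The second of these values lies within the members' interval. The upper quartile of width was 334 bp in members. In QSC-only intervals of windows with 1, 2 and 3 to 5 FISC midpoints it was 334, 330 and 336 bp. The widest 10% of the QSC list, which begins at 469 bp, held 27 members (2.34%, 1.62 to 3.39), 3.74% of QSC-only intervals elsewhere (3.39 to 4.13) and 20.7% of shared ones (19.7 to 21.6). Those 27 members lay in 27 different windows on 15 chromosomes and ran from 471 to 674 bp.

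**Figure D2:**
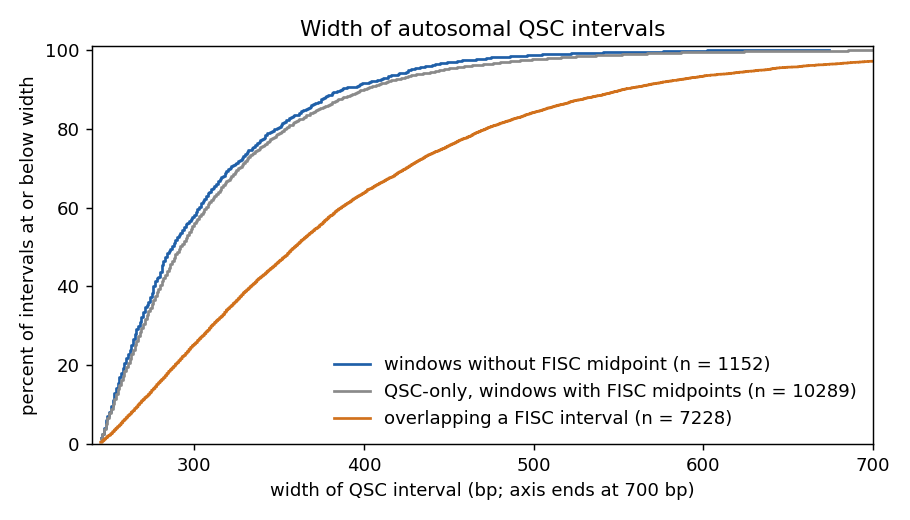
Cumulative percent of autosomal QSC intervals (y axis) by width in bp (x axis, drawn to 700 bp) for members (blue, n = 1152), QSC-only intervals in windows with FISC midpoints (grey, n = 10289) and intervals that overlap a FISC interval (orange, n = 7228). The blue and grey curves run close together, with medians of 287 and 292 bp, and the orange curve lies to the right with a median of 359 bp.

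The widest member lay at chr2:139984710-139985383 (mm9), 674 bp, in a run of 3 member windows and 986 kb from the nearest FISC interval. The next was 602 bp at chr4:73098919-73099520, also in a run of 3, 1110 kb from FISC. At chr7:131027032-131027616 lay the next, 585 bp wide, in a lone member window with 6 members, 359 kb from FISC. The nearest FISC call thus lay 359 kb or more from all 3.

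Splitting the members by the number of QSC intervals in their window left the widths alike. Median widths were 292 bp in member windows with 1 to 2 QSC intervals, 286.5 bp with 3 to 4, 288 bp with 5 to 6 and 284.5 bp with 7 to 9. QSC-only intervals of equally filled windows with FISC had medians of 291, 292, 293 and 291 bp. The median width showed no steady change with distance to the other list either. Members within 250 kb of a FISC interval had a median of 285 bp (n = 82), and those at 250 to 500 kb 289 bp (n = 231). At 500 to 1000 kb it was 290 bp (n = 516), and beyond 1000 kb 283 bp (n = 323). The share at or above the list median was lowest within 250 kb, 25.6% (21 of 82). In the farther groups it was 35.9%, 38.6% and 34.7%. By chromosome, the member median was below that of QSC-only intervals elsewhere on 16 autosomes and above it on 3, with differences from -22 bp on chromosome 5 to 13 bp on chromosome 3.

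Members lay far apart. Neighbouring members of a run were a median of 135 kb apart (938 gaps, 95% order-statistic interval 123 to 146), against 64.4 kb (17275 gaps, 62.9 to 66.2) between QSC neighbours in runs of windows that held FISC. Gaps under 100 kb made up 41.4% of the member gaps and 63.04% of the others, and gaps under 10 kb 4.69% (44 gaps) and 12.5%. Runs of member windows are short, which limits the largest gap that can occur within them. Between windows with like numbers of QSC intervals the direction varied. Within windows of 1 to 2 QSC intervals the median gap was 193 kb for members (36 gaps) and 255 kb where FISC was listed (84 gaps). Within windows of 3 to 4 QSC intervals it was 180 and 174 kb, and within windows of 5 to 6 it was 119 and 108 kb. Windows of 7 to 9 had 88.9 and 75.8 kb. With 10 or more, the single member window had 57.8 kb and the others 39.4 kb.

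Some members still stood side by side. The closest pair lay on chromosome 3, at chr3:12226723-12226991 and chr3:12227313-12227584, with midpoints 0.592 kb apart. A second pair lay 0.633 kb apart at chr8:61848068-61848424 and chr8:61848741-61849016. A further pair, 1.08 kb apart, lay at chr6:18921025-18921286 and chr6:18922091-18922372.

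The nearest FISC interval was a median of 747 kb from a member, with a middle 50% from 479 to 1041 kb. QSC-only intervals in other windows were a median of 45.6 kb away. A FISC interval lay within 100 kb of 16 members (1.39%) and of 69.1% of those other intervals. Beyond 1000 kb lay 323 members. The member nearest to FISC, at chr14:74994194-74994476, was 7.87 kb from a FISC interval across its window's edge. The farthest, at chr7:10910626-10910881, was 2549 kb from one.

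Joining adjacent windows gave 214 runs. Of these, 161 were single windows with 637 members, 39 were 2 windows long with 322 members, 13 were 3 windows long with 173, and 1 was 4 windows long with 20. Thus 121 of the 282 windows (42.9%, 37.3 to 48.7) touched another member window. Among QSC-holding neighbours of member windows, 24.9% (21.5 to 28.7) were member windows, and among those of the other windows 9.96% (9.08 to 10.9). Adjacent windows are counted from both sides and are not independent, so the intervals of these shares are too narrow. Members per window were 3.96 in single windows, 4.13 in runs of 2 and 4.44 in runs of 3.

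The 208 runs with FISC intervals on both sides sat in FISC-free stretches with a median length of 1930 kb and a range from 1026 to 6208 kb, measured between FISC midpoints. The other 6 runs, with 19 members, lay at the ends of the listed part of chromosomes 1, 3, 9, 12 and 14, where FISC bounded them on 1 side. Without any window grid, the autosomes held 393 stretches of at least 1000 kb between neighbouring FISC midpoints, 692 Mb in all. These contained 2692 QSC intervals, 14.4% of the autosomal list, and 5 of the stretches contained none. Among the 2692 were 1133 of the 1152 members, a number fixed by the rule. A member window with FISC on both sides must lie in such a stretch. The QSC list had 74 stretches of that length, 112 Mb in all.

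The longest run lay on chromosome 3 from 111 to 115 Mb (mm9) and held 20 members. Its windows held 3, 6, 6 and 5 members. In the first window the widths were 504, 293 and 356 bp. The second window had 256, 321, 315, 322, 282 and 265 bp, the next 250, 316, 323, 540, 329 and 280 bp, and the last 287, 354, 305, 318 and 284 bp. With 11 of 20 at or above the list median and a median of 315.5 bp, this run was wider than the members as a whole. Its widest interval was chr3:113771510-113772049, 1528 kb from FISC. Neighbours were a median of 115 kb apart, and the largest gap was 632 kb. FISC midpoints bounded a stretch of 4609 kb that held 22 QSC intervals. The window before the run listed 4 QSC and 3 FISC intervals, and the one after it 11 and 6.

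Chromosome 6 carried a run from 103 to 106 Mb with 18 members, 7, 5 and 6 per window. The widths ran from 247 to 489 bp with a median of 292.5 bp, and 8 reached the list median. The widest, chr6:103715257-103715745, lay between members of 318 bp and 449 bp in the first window. The FISC-free stretch was 3938 kb long and held 23 QSC intervals. Both flanking windows listed 2 FISC intervals.

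The run on chromosome 1 from 110 to 113 Mb held 17 members, 9 of them in its first window. In that window 6 members, from chr1:110715356-110715626 to chr1:110954485-110954989, had widths of 271, 291, 270, 280, 247 and 505 bp. The median width of the run was 291 bp, and its FISC-free stretch of 4382 kb held 21 QSC intervals. Its flanking windows listed 1 and 2 FISC intervals.

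A run of 17 members on chromosome 11, from 13 to 16 Mb, had 4, 9 and 4 members per window and the lowest median width of the 5 longest runs, 274 bp. Its widest member, chr11:13324560-13325116, measured 557 bp, and the 9 members of the middle window only 250 to 315 bp. The FISC-free stretch was 3702 kb long. Unlike the runs on chromosomes 1 and 6, it lay between windows with 5 and 4 FISC intervals. The other runs of 3 windows, which held fewer members than these 5 runs, had median widths from 257 to 382 bp.

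On chromosome 14, from 38 to 41 Mb, 15 members fell as 4, 6 and 5 per window. Their median width was 280 bp and the widest, chr14:38560497-38560916, measured 420 bp. The FISC-free stretch was 3248 kb long and held these 15 QSC intervals and no other. The flanking windows listed 6 and 7 FISC intervals.

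**Figure D3:**
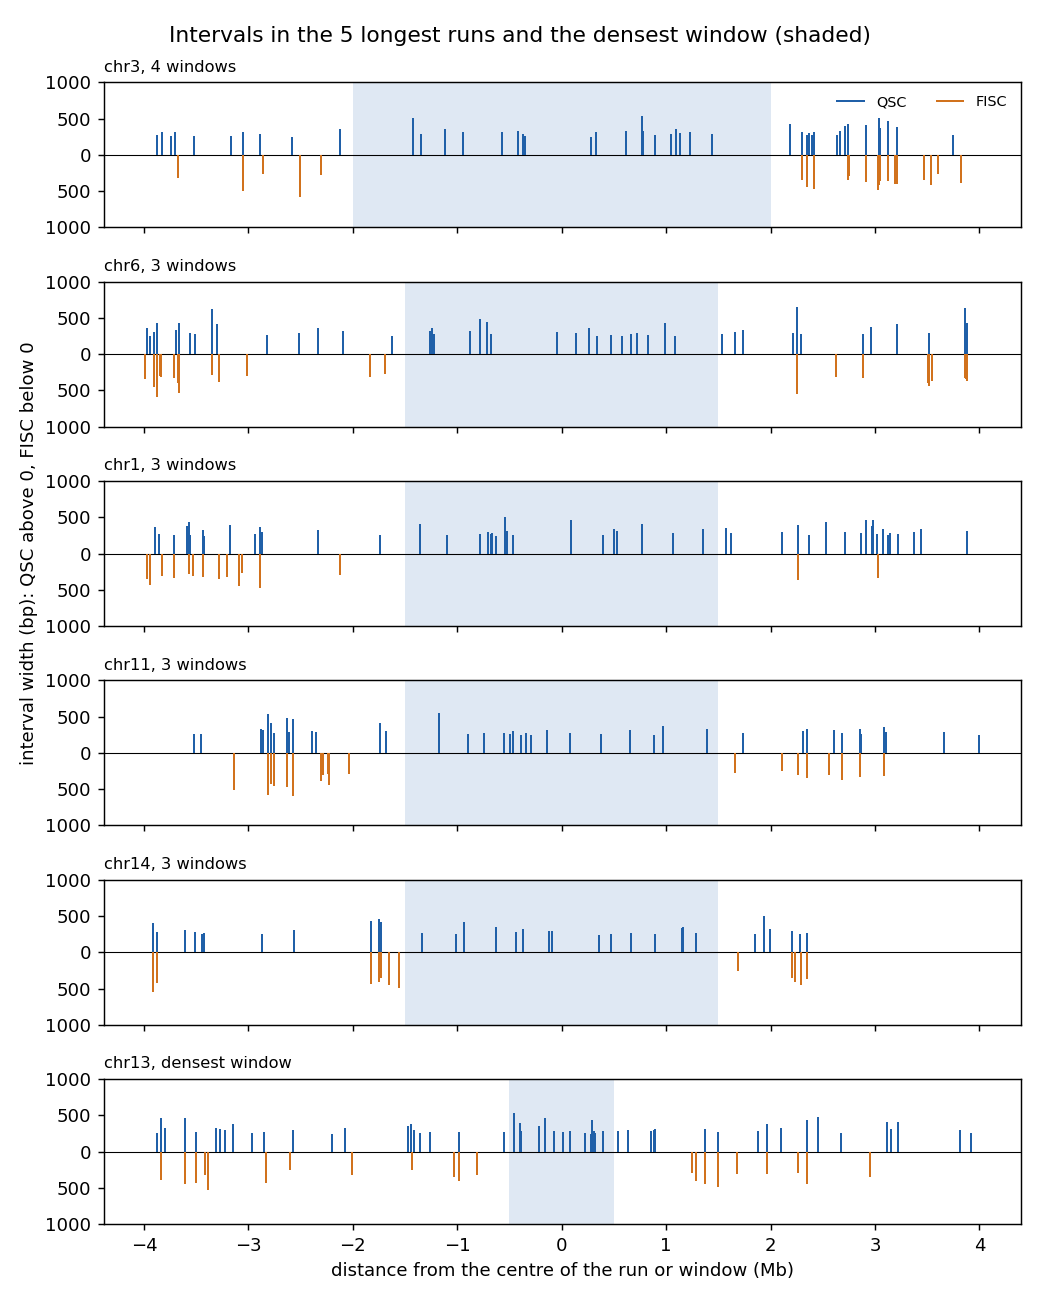
QSC intervals (blue, upward) and FISC intervals (orange, downward) within 4 Mb of the centre of the 5 longest runs and of the densest window (shaded); the x axis is the distance from that centre in Mb and the height is the interval width in bp. No orange line falls in a shaded part, which holds 20, 18, 17, 17, 15 and 15 blue lines from top to bottom.

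The window with the most members lay on chromosome 13 from 7 to 8 Mb, a lone window with 15. They spanned 853 kb from 7046434 to 7899820, with widths in order of 529, 392, 286, 350, 465, 282, 268, 289, 261, 245, 292, 444, 286, 254 and 280 bp. The first of them, chr13:7046434-7046962, was the widest. Their median width was 286 bp, against 287 bp over all members, and 5 reached the list median. Midpoints were a median of 57.8 kb apart, with 12 of 14 gaps under 100 kb and 3 under 10 kb. A close group of 5 lay between chr13:7784159-7784403 and chr13:7817538-7817791. The nearest FISC interval was 357 kb away, the FISC-free stretch was 2055 kb long, and the flanking windows listed 7 QSC intervals each with 5 and 4 FISC intervals. The other autosomal windows with 15 or more QSC intervals held at least 9 FISC intervals each, with a median of 21.

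The next windows by number of members, 4 in all, held 9 each. The runs above contain those on chromosome 1 (110 to 111 Mb) and chromosome 11 (14 to 15 Mb). The others lay on chromosome 4, from 91 to 92 Mb, and on chromosome 8, from 39 to 40 Mb. The chromosome 4 window spanned 630 kb of members with a median spacing of 46.8 kb and a median width of 298 bp. It formed a run with the window before it, which held 7 members, in a FISC-free stretch of 3537 kb. The chromosome 8 members were spread over 985 kb, 95.04 kb apart at the median, with widths from 258 to 342 bp.

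A run of low density contrasted with these. On chromosome 7 from 10 to 13 Mb, chosen after its values were seen, 10 members fell as 1, 1 and 8 per window inside a FISC-free stretch of 6208 kb with 12 QSC intervals. Widths ran from 247 to 386 bp, and 1 of the 10 reached the list median. The longest FISC-free stretch, 7328 kb on chromosome 7 from 39224788 to 46552323, held 4 QSC intervals and no member window, and 6 of its windows were empty in both lists. Within the listed spans of the autosomes, 35 windows were empty in both lists, and 7 of the 282 member windows adjoined one.

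Density on both sides of the runs was below average, most of all in the adjoining windows. The first window beside a run held a mean of 5.92 QSC and 4.50 FISC intervals (422 windows), and the second 6.86 and 5.74. At 4 Mb the means were 7.42 and 6.50, and at 10 Mb 7.38 and 6.24. All 2425 windows between the first and the last listed window of each autosome averaged 7.70 and 7.06, counting the 13 with FISC alone and the 35 with neither list. FISC intervals per QSC interval were 0.761 in the first window, 0.876 at 4 Mb and 0.917 over all windows. By the rule, a first window that held QSC also held FISC. A window near several runs is counted for each.

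**Figure D4:**
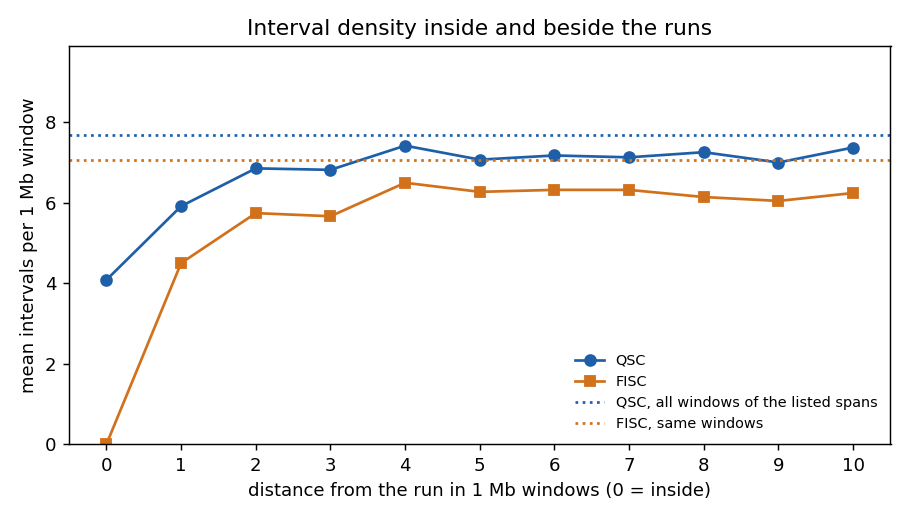
Mean number of QSC (blue) and FISC (orange) intervals per 1 Mb window (y axis) inside the runs (x = 0) and 1 to 10 windows away on either side (x axis, Mb), with dotted lines for the mean of all 2425 windows in the listed spans of the autosomes. Inside the runs QSC is at 4.09 and FISC at 0 by the rule; both stay below their dotted lines out to 10 Mb.

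The windows lay on every autosome. Chromosome 3 had the highest share, 29 of 157 windows (18.5%, 95% Wilson interval 13.2 to 25.3), and 120 members, 11.3% of its QSC list. Chromosome 4 followed with 27 of 152 (17.8%, 12.5 to 24.6) and chromosome 7 with 21 of 136 (15.4%, 10.3 to 22.5). The interval of chromosomes 3 and 4 lay above the 11.9% of all autosomes, and that of chromosome 7 included it. These chromosomes were picked as the highest of 19, and the 11.9% includes them. Chromosome 3 also had the fewest FISC intervals per QSC-holding window, 5.32, against 7.49 on chromosome 4 and 8.81 on chromosome 7. Chromosome 19 had the lowest share, 3 of 59 (5.08%, 1.74 to 13.9), followed by chromosome 18 with 5 of 87 (5.75%, 2.48 to 12.8). Neighbouring windows are not independent, so these intervals are too narrow. Of the 14 runs of 3 or more windows, 4 lay on chromosome 3, 2 each on chromosomes 2 and 6, and 1 each on 6 other chromosomes.

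**Figure D5:**
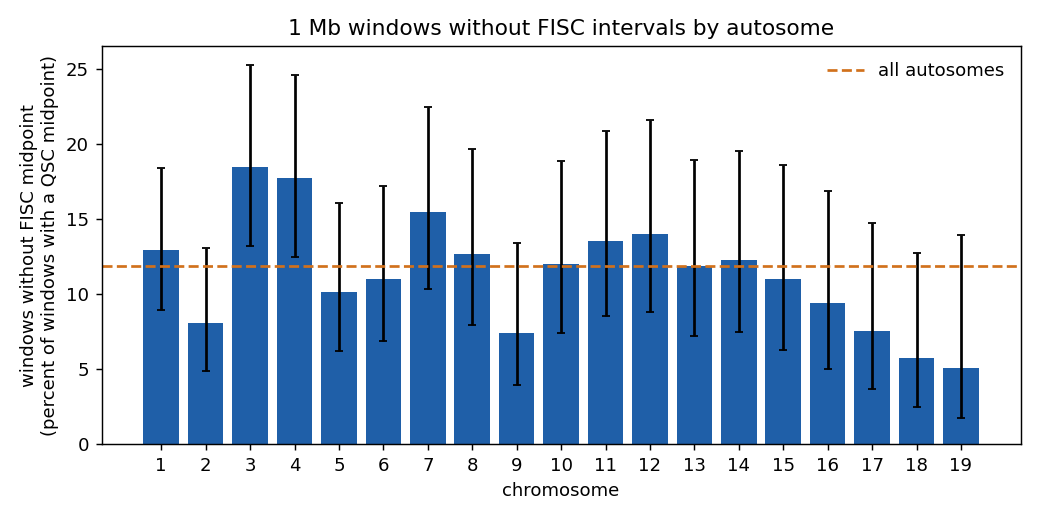
Windows without a FISC midpoint as a percent of 1 Mb windows with a QSC midpoint (y axis) on each autosome (x axis), with 95% Wilson intervals as error bars and the value of all autosomes, 11.9%, as a dashed line. Chromosome 3 is highest at 18.5% and chromosome 19 lowest at 5.08%.

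Along the chromosomes the windows were fewest towards the end with the highest coordinates. With each autosome's listed span cut into 5 equal parts, counted from the low-coordinate end, where the mouse centromere lies, the share was 13.2% (10.5 to 16.6), 12.3% (9.65 to 15.6), 14.9% (11.9 to 18.3), 11.5% (8.91 to 14.6) and 7.50% (5.47 to 10.2) of windows with a QSC midpoint. The last part had 36 windows without FISC of 480, and the other 4 parts between 55 and 71. Neighbouring windows are not independent here either, so these intervals are too narrow. The QSC density of the 5 parts was not compared.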

How the data were processed

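CTCF peak intervals, in 1 list per state, were deposited by the authors as chromosome, start and end. The submitters' processing notes name mm9 as build, and MACS2, HOMER, Picard and Bowtie2 2.2.3 as tools, without saying which did what. The threshold and the handling of the inputs are not given in these sources. On 9 of 20 chromosomes an interval lay beyond the end of the last annotated GRCm38 gene, so the GRCm38 gene table and its sequences were not used: intervals carry no gene names or sequences. Coordinates count from 1.

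Windows, runs, widths and gaps were computed with Python 3.11.15, numpy 2.4.6, pandas 2.3.3 and scipy 1.17.1, and the procedures were tested on simulated lists. Width is the number of bases from start to end, both included, and gaps run between midpoints. Distances to FISC run between interval edges. Medians carry exact binomial order-statistic intervals. No test was made, as each state has 1 list. The regions named are the 5 longest runs (ties by members), the 5 windows with most members and the 3 widest members. The rule and lists were chosen with earlier results of these data known. Alternatives changed the window size, grid, assignment, minimum, chromosomes and QSC list.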

Additional observations from a re-analysis of the deposited data

How the results depend on the processing

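The share of windows, the number and width and spacing of members, the number of runs and the exchanged rule were recomputed under 8 alternatives. Of 48 values, 31 stayed within the limits set, which were 1.5 times for counts and the 95% interval for the share and medians. With 500 kb windows the share was 22.2%, with 2317 members in 574 runs and 131 windows by the exchanged rule. With 2 Mb windows it was 3.30%, with 305 members of 282 bp median width in 40 runs and 3 exchanged windows. QSC intervals at or above the list median gave 10.2%, 415 members of 354 bp, a spacing of 243 kb and 133 exchanged windows. The last of these settings kept only QSC intervals of 310 bp or more, so its member width was raised by the selection itself. What else moved the values was not tested. At least 3 midpoints per window gave 10.03% and 1 exchanged window. The widest QSC intervals, as many as FISC, gave a width of 297 bp. Assignment by any overlap in place of midpoints gave the same values throughout, and the grid shifted by 500 kb gave 275 windows with 1143 members. The cut to equal list sizes and all alternatives of the exchanged rule were added after seeing the data. A stricter calling threshold could not be set without a score per interval, and the annotation and sequence analysis was not run, since no mm9 reference was used. No paired analysis was possible because the 2 libraries of a state are not given apart, so no replicate could be left out either. The unknown depth limits every statement on missing FISC peaks.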

Other observations

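The X chromosome lies outside the autosomal rule. Applied there, the rule gave 39 of 155 windows with a QSC midpoint (25.2%, 95% Wilson interval 19.0 to 32.5) and 129 of 733 QSC intervals (17.6%). FISC intervals were fewer on X as a whole, 396 against those 733, while the autosomes had 17124 against 18669. The windows formed 22 runs, and the longest spanned 10 windows from 118 to 128 Mb with 34 QSC intervals, against 4 windows on the autosomes. Members on X had a median width of 298 bp, against 286 bp for the 503 QSC-only intervals in X windows with FISC. Windows without FISC held 3.31 QSC intervals on X and 4.09 on the autosomes.

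By the exchanged rule, 19 autosomal FISC intervals lay in 13 windows without a QSC midpoint, at most 3 per window. Their median width was 309 bp, and 6 of the 19 reached the autosomal FISC median of 373 bp.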
